A study of Mus musculus with 143 samples.

Results

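Astrocytes that react to injury or disease switch on a recognisable set of genes, and 10 of these were followed in the mouse striatum: Gfap, Serpina3n, Vim, Lcn2, Steap4, Osmr, Cd44, Timp1, Cp and S1pr3. The genes were chosen by name, and all 10 were found among the 41128 genes of the count table. Polyadenylated RNA was sequenced from 143 mice, 1 library per animal, and the genes were compared over 18 groups. Each group is a genotype (zQ175 or WT), a treatment (HTT-10150, NTC or none) and a strategy named by its ages in months.

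zQ175 mice are a knock-in model of Huntington's disease in which the mouse Htt gene holds a long CAG repeat, and WT mice are wild type. HTT-10150 is a small interfering RNA (siRNA) directed at Htt, and NTC is a non-targeting siRNA. The route of delivery is not given in the sources used here. In 2[4]6, animals were given siRNA at 2 months and their tissue was taken at 6 months. In 6[4]10, dosing was at 6 months and collection at 10 months. In 2+6[8]10, siRNA was given at 2 and at 6 months and tissue was taken at 10 months. Untreated animals of each strategy were collected at the same age. Groups held 8 animals, 4 female and 4 male, apart from the 2+6[8]10 WT animals given HTT-10150, which numbered 7 (2 female and 5 male).

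Reactive astrocytes enlarge and thicken their intermediate filaments, which are built from GFAP and vimentin (Vim). Cytokines of the IL-6 family act through receptors such as the oncostatin M receptor (Osmr) and the transcription factor STAT3, and a part of the reactive genes is driven through that route. Other members encode secreted proteins: Serpina3n is a protease inhibitor, Timp1 an inhibitor of matrix metalloproteinases, Lcn2 a carrier of iron-binding molecules, and Cp (ceruloplasmin) a copper-bearing iron oxidase. Cd44 is a receptor for hyaluronan, S1pr3 a receptor for sphingosine-1-phosphate, and Steap4 a metal reductase. In Huntington's disease, gliosis of the striatum accompanies the loss of its medium spiny neurons.

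The promoters of the filament genes Gfap and Vim and of Serpina3n, the member with the largest genotype difference among those kept by the filter on low counts, are shown for the motifs they hold. Each window runs from 250 bases before to 50 bases after the RefSeq start site on build GRCm38.p6 and is written 5′ to 3′ on the strand of the gene. Capitals mark matches to the STAT-type motif TTCNNNGAA or the NF-kB-type motif GGGNNTTCC, searched on both strands.
Gfap, chr11:102897151-102897450, minus strand: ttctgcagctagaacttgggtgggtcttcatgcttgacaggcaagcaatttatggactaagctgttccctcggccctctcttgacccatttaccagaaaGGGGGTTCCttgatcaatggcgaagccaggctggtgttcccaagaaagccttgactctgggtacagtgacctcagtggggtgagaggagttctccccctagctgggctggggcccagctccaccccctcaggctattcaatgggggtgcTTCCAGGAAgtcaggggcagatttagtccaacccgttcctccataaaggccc
Serpina3n, chr12:104406458-104406757, plus strand: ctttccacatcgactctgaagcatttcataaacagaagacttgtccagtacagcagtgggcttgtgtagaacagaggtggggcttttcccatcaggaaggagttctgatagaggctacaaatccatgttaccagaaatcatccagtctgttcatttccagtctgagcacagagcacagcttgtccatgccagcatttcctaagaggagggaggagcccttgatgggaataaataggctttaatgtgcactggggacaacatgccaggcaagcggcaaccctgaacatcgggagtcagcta
Vim, chr2:13574061-13574360, plus strand: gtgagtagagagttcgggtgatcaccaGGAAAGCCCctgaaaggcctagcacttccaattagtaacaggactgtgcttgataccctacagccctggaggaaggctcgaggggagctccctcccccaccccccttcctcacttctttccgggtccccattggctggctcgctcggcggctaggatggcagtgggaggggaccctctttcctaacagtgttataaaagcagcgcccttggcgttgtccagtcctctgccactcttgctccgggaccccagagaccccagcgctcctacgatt

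Windows were found for 10 of 10 members, 11 windows in all since Cp has 2. The Gfap window held TTCNNNGAA from position -2 relative to the start site and GGGNNTTCC from position -151. The Vim window held GGGNNTTCC on the opposite strand from position -223, and the Serpina3n window held none of the motifs searched. Among the other members, Steap4 held TTCNNNGAA and GGGNNTTCC, while Osmr and Cp each held the AP-1-type motif TGANTCA. Lcn2, Cd44, Timp1 and S1pr3 had no match in these windows. Of 32851 windows of this length, 8.3% held TTCNNNGAA, 7.81% held TGANTCA and 5.82% held GGGNNTTCC, and a match describes the letters alone.

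On GRCm38 with the GENCODE M21 annotation, all 10 members are protein-coding genes. Gfap (ENSMUSG00000020932) lies at chr11:102887336-102900912, Serpina3n (ENSMUSG00000021091) at chr12:104406729-104414329, Vim (ENSMUSG00000026728) at chr2:13573927-13582826 and S1pr3 (ENSMUSG00000067586) at chr13:51408639-51422797. Lcn2 (ENSMUSG00000026822) lies at chr2:32384633-32388252, Steap4 (ENSMUSG00000012428) at chr5:7960457-7982213 and Cd44 (ENSMUSG00000005087) at chr2:102811141-102901665. Osmr (ENSMUSG00000022146) lies at chr15:6813577-6874969. Timp1 (ENSMUSG00000001131), at chrX:20870166-20874735, sits inside Syn1 on the opposite strand and shares 0 exonic bases with it. Cp (ENSMUSG00000003617), at chr3:19957054-20009145, shares 108 exonic bases with Hps3 on the opposite strand. Serpina3n belongs to a cluster of near-identical mouse genes, so its share of the reads is less certain than for the other members.

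Total counts per library ran from 12.55 to 29.19 (median 18.85), in units of 1000000 counts. Htt, counted over both alleles, checks the siRNA: under HTT-10150 against NTC its log2 fold change in zQ175 was -0.01 ± 0.05 (SE) in 2[4]6, -0.32 ± 0.08 in 6[4]10 and -0.36 ± 0.06 in 2+6[8]10, and it passed the test in 2+6[8]10 alone (adjusted p = 0.99, 0.60 and 0.00035). In WT the values were -0.26 ± 0.05, -0.34 ± 0.08 and -0.49 ± 0.06 (adjusted p = 0.057, 0.82 and 5e-06). A list of 16 astrocyte markers summed to 4705 to 8029 CPM per library (counts per 1000000 counts, scaled by edgeR's TMM method). Astrocyte RNA was thus present in each library, which does not show which cells the members' RNA came from. In bulk tissue, fewer cells of a type and less RNA per cell cannot be told apart.

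The 10 genes span a wide range of levels, compared here in TPM (transcripts per 1000000 transcripts), a unit per length. Over all 143 libraries the median TPM was 115.2 for Gfap, 34.3 for Vim, 7.07 for Serpina3n, 6.66 for Cp, 3.25 for S1pr3, 1.78 for Osmr and 1.72 for Cd44. Timp1, Steap4 and Lcn2 were near the limit of detection, at 0.198, 0.195 and 0.181 TPM. Their median counts were 2, 5 and 1 per library, and 33 libraries had no Timp1 count, 1 no Steap4 count and 39 no Lcn2 count. The lowest Gfap library (69.2 TPM) was above the highest Vim library (59.7 TPM), and the lowest Vim library (24.2 TPM) was just under the highest of Serpina3n (25.7 TPM). The range of Cp (4.36 to 9.09 TPM) lay within that of Serpina3n (3.88 to 25.7 TPM), Osmr (1.21 to 3.43 TPM) and Cd44 (0.829 to 3.32 TPM) overlapped over most of their ranges, and the 3 rare members all reached down to 0. The filter on low counts kept 7 members within each strategy and dropped these last 3, and a test over all libraries together kept 8, Steap4 included. Levels below are TMM-scaled CPM, which may be compared between libraries for 1 gene and not between genes.

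Serpina3n, which encodes a secreted serine protease inhibitor that reactive astrocytes make in quantity, was the member with the largest genotype difference among those tested. In untreated animals of 6[4]10, Serpina3n had 8.23, 10.2 and 15.6 CPM (lowest, median and highest of 8) in zQ175, against 4.37, 5.68 and 6.95 CPM in WT. Every zQ175 library lay above every WT library there. The log2 fold change was 1.003 ± 0.15 (SE), with an adjusted p of 5.2e-07 by edgeR's quasi-likelihood test. In untreated 2+6[8]10, Serpina3n had 6.47, 9.53 and 15.6 CPM in zQ175 against 4.54, 5.46 and 10.7 CPM in WT, and 3 of 8 zQ175 libraries stood above all WT libraries. The difference of 0.79 ± 0.19 passed the test there too (adjusted p = 0.00091).

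At 6 months the values of the difference were lower. Serpina3n had 6.16, 6.64 and 8.79 CPM in untreated zQ175 of 2[4]6 against 3.74, 4.96 and 6.86 CPM in WT, and the groups overlapped. The log2 fold change of 0.40 ± 0.12 passed (adjusted p = 0.0084), but not when replicate 2 was left out of every group (0.36, adjusted p = 0.059). Under NTC, Serpina3n rose in zQ175 by 0.44 ± 0.12 in 2[4]6, by 1.05 ± 0.15 in 6[4]10 and by 0.95 ± 0.19 in 2+6[8]10 (adjusted p = 0.0037, 1.8e-07 and 6e-05). The NTC value in 2[4]6 became 0.33 without replicate 3 (adjusted p = 0.092). Under HTT-10150 the difference was 0.24 ± 0.12 in 2[4]6, which did not pass (adjusted p = 0.12, and 0.42 with adjusted p = 0.021 without replicate 1), and 1.30 ± 0.15 in 6[4]10 and 0.93 ± 0.19 in 2+6[8]10, which did (adjusted p = 1.1e-09 and 0.00015). In 6[4]10 under HTT-10150 the libraries had 10.1, 12.04 and 22.4 CPM in zQ175 against 4.49, 5.59 and 6.54 CPM in WT, again without overlap. Serpina3n was thus higher in 8 of the 9 genotype comparisons at adjusted p under 0.05, and its value was positive in all 9.

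**Figure D1:**
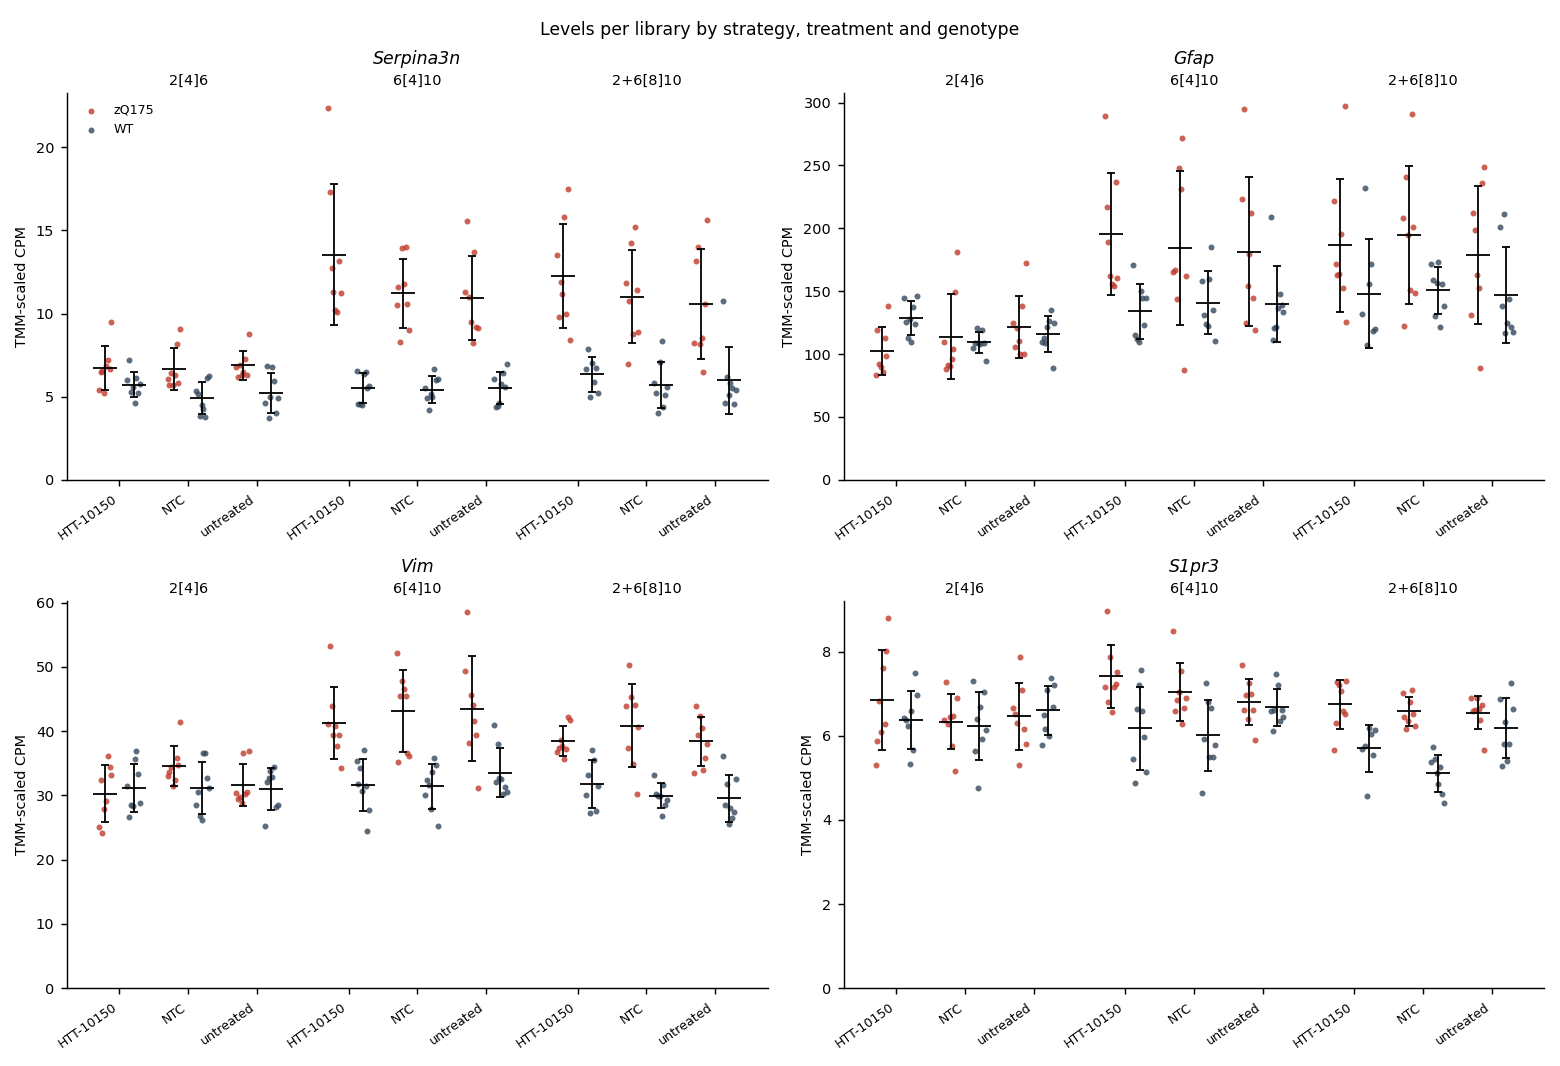
Levels of Serpina3n, Gfap, Vim and S1pr3 in TMM-scaled CPM (linear axes from 0), 1 point per library, with zQ175 in red left of WT in dark blue-grey for each treatment and strategy; black bars are the mean and SD of 8 libraries (7 for WT under HTT-10150 in 2+6[8]10). Serpina3n in zQ175 stands clear of WT in all 3 treatments of 6[4]10, while Gfap spreads widely in zQ175 and overlaps with WT.

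Vim encodes vimentin, the filament protein that astrocytes raise alongside GFAP and that vessels and ependyma also make. In 6[4]10 untreated animals, Vim had 31.1, 42.9 and 58.5 CPM in zQ175 against 30.2, 32.3 and 40.9 CPM in WT. In 2+6[8]10 it had 33.5, 38.7 and 43.9 CPM in untreated zQ175 against 25.5, 28.3 and 36.2 CPM in WT. The zQ175 libraries were mostly the higher ones, with overlap in both strategies. The log2 fold changes of 0.38 ± 0.10 and 0.37 ± 0.08 passed (adjusted p = 0.0021 and 0.00016). Vim also rose in zQ175 under NTC, by 0.47 ± 0.10 and 0.45 ± 0.08, and under HTT-10150, by 0.39 ± 0.10 and 0.27 ± 0.08 (adjusted p between 5.2e-06 and 0.0074). The last of these became 0.22 without replicate 4 (adjusted p = 0.072). At 6 months the untreated difference was 0.03 ± 0.07, with 28.8, 30.3 and 37.0 CPM in zQ175 against 25.3, 32.4 and 34.5 CPM in WT, and none of the 3 treatments passed in 2[4]6.

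Gfap, the classical marker of reactive astrocytes, differed less clearly than Serpina3n or Vim. In untreated 6[4]10 animals Gfap had 118.8, 166.8 and 294.7 CPM in zQ175 against 111.1, 134.8 and 209.2 CPM in WT. In untreated 2+6[8]10 animals it had 88.8, 180.5 and 249.0 CPM in zQ175 against 117, 132 and 212 CPM in WT. The zQ175 groups reached the highest values and also, in 2+6[8]10, the lowest. The differences of 0.39 ± 0.18 and 0.26 ± 0.18 did not pass (adjusted p = 0.089 and 0.28), and those under NTC, 0.39 ± 0.18 and 0.36 ± 0.18, did not either (adjusted p = 0.093 and 0.11).

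Gfap passed the test in 2 of 9 genotype comparisons, and in opposite directions. Under HTT-10150 in 6[4]10 it ran from 154.1 to 289.0 CPM in zQ175 (mean 195.6 ± 48.6 SD, n = 8), against 110 to 171 CPM in WT (mean 134 ± 21.9 SD, n = 8), higher by 0.55 ± 0.18 (adjusted p = 0.015). It was 0.51 without replicate 1 and 0.50 without replicate 2 (adjusted p = 0.066 and 0.084). Under HTT-10150 in 2[4]6 it had 83.2, 95.5 and 139 CPM in zQ175 against 110, 127 and 146 CPM in WT, and fell by 0.32 ± 0.13 on the log2 scale (adjusted p = 0.043). This lower value was -0.22, -0.39 and -0.31 without replicates 1, 2 and 3 (adjusted p = 0.32, 0.056 and 0.15), and -0.32 without the filter on low counts (adjusted p = 0.076). The coefficient of variation of Gfap ran from 18.8% to 33.1% over the 9 zQ175 groups and from 7.42% to 29.4% over the 9 WT groups.

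**Figure D2:**
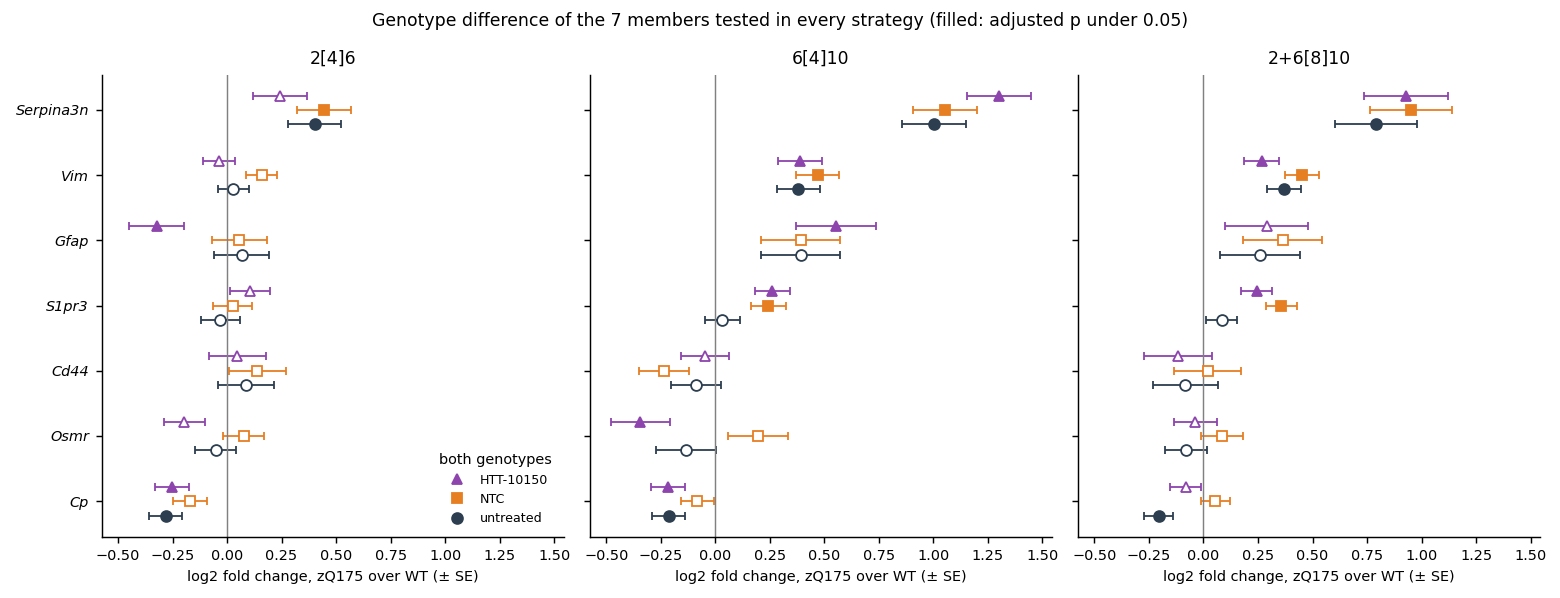
Log2 fold change, zQ175 over WT, of the 7 members tested in every strategy (same axis in the 3 panels; bars are ± SE; triangles for HTT-10150, squares for NTC and circles for untreated animals of both genotypes). Filled symbols passed at adjusted p under 0.05; Serpina3n is filled in 8 of 9 places and Vim in the 6 places of the 10-month strategies.

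S1pr3, a receptor for a lipid signal that reactive astrocytes carry, was higher in zQ175 among siRNA-treated animals at 10 months. Under NTC in 2+6[8]10, S1pr3 had 6.17, 6.49 and 7.09 CPM in zQ175 against 4.39, 5.20 and 5.73 CPM in WT, without overlap, with a log2 fold change of 0.36 ± 0.07 (adjusted p = 4.3e-05). It was also higher than in WT under HTT-10150 in 2+6[8]10 (0.24 ± 0.07, adjusted p = 0.0064) and under both siRNAs in 6[4]10, by 0.26 ± 0.08 for HTT-10150 and 0.24 ± 0.08 for NTC (adjusted p = 0.0086 and 0.016). The 6[4]10 values became 0.19 and 0.14 without replicate 1, and 0.24 for both siRNAs without replicate 4 (adjusted p between 0.067 and 0.24). In untreated animals S1pr3 stood at 0.03 ± 0.08 in 6[4]10 and 0.08 ± 0.07 in 2+6[8]10, neither past the test. Mean levels in 2+6[8]10 were 6.55 CPM untreated and 6.58 CPM under NTC in zQ175, against 6.18 and 5.11 CPM in WT. In 6[4]10 they were 6.805 and 7.046 CPM in zQ175 against 6.676 and 6.011 CPM in WT. The WT means were thus lower under NTC than untreated in both strategies. Whether the genotype difference of S1pr3 differs between NTC and untreated animals was not tested.

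Ceruloplasmin (Cp) was lower in zQ175 in 5 of the 9 genotype comparisons and higher in none. In untreated 2[4]6 animals Cp had 8.70, 11.3 and 12.3 CPM in zQ175 against 11.8, 13.7 and 15.8 CPM in WT, and fell by 0.28 ± 0.08 on the log2 scale (adjusted p = 0.0031). The ranges overlap at their edges only. Cp also fell in untreated animals of 6[4]10, by 0.21 ± 0.08, and of 2+6[8]10, by 0.20 ± 0.07 (adjusted p = 0.025 and 0.014). Under HTT-10150 it fell by 0.25 ± 0.08 in 2[4]6 and by 0.22 ± 0.08 in 6[4]10 (adjusted p = 0.0094 and 0.025). Under NTC it passed in 0 of 3 strategies, with -0.17 ± 0.08, -0.08 ± 0.08 and 0.05 ± 0.07. Of the 5 lower values, that of untreated 2[4]6 passed whichever replicate number was left out. The other 4 each missed the threshold without 2 of the 4 replicate numbers, with values between -0.21 and -0.14: replicates 1 and 2 for HTT-10150 in 2[4]6, 1 and 4 for HTT-10150 in 6[4]10, 2 and 4 for untreated 6[4]10, and 3 and 4 for untreated 2+6[8]10.

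Osmr passed in 1 of 9 comparisons. Under HTT-10150 in 6[4]10 it had 2.84, 3.94 and 5.25 CPM in zQ175 against 4.47, 5.09 and 6.89 CPM in WT, and fell by 0.34 ± 0.14 (adjusted p = 0.044). Without any 1 of the 4 replicate numbers it did not pass (-0.42 to -0.26, adjusted p between 0.056 and 0.20), nor without the filter on low counts (-0.34, adjusted p = 0.065) or with the oligodendrocyte covariate described below (-0.27, adjusted p = 0.17). Its other 8 values lay on both sides of 0. Cd44 passed in 0 of 9 by edgeR and by DESeq2 (1 at an unadjusted p under 0.05), with group medians between 2.42 and 3.54 CPM in zQ175 and between 2.60 and 3.51 CPM in WT. Without replicate 2, Cd44 was lower in zQ175 under NTC in 6[4]10 (-0.41, adjusted p = 0.012, against -0.23 with all libraries).

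Counted by comparison, untreated zQ175 against WT passed for 1 member upwards and 1 downwards of 7 in 2[4]6, where 32.6% of all genes tested passed. The counts were 2 upwards and 1 downwards in 6[4]10 (36.1% of all genes, 19.2% upwards) and the same in 2+6[8]10 (35.4%). Under NTC, 1 member passed in 2[4]6 (34.4% of all genes, 15.9% upwards), 3 in 6[4]10 (32.8%, 16.8% upwards) and 3 in 2+6[8]10 (42.1%, 20.7% upwards), all upwards. Under HTT-10150, 2 passed in 2[4]6, both downwards (33.5%, 17.4% downwards), 6 in 6[4]10, 4 up and 2 down (34.7%, 17.8% upwards), and 3 in 2+6[8]10, all up (36.2%, 17.5% upwards). The 6 of 7 under HTT-10150 in 6[4]10 became 2 to 5 of 7 without 1 replicate number. In both directions together, the other counts of 1 to 3 of 7 fall on either side of the shares of all genes, and the upward counts of 3 of 7 are above the upward shares. The median log2 fold change of the 7 members in 2[4]6, 6[4]10 and 2+6[8]10 was 0.03, 0.03 and 0.08 in untreated animals, 0.08, 0.24 and 0.36 under NTC and -0.04, 0.26 and 0.24 under HTT-10150, against 0.00 to 0.01 for all genes.

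With all 143 libraries in 1 fit and the 9 genotype pairs weighted equally, 5 of 8 members passed, where 70.9% of all genes did. Serpina3n was higher in zQ175 by 0.79 ± 0.05 on the log2 scale, Vim by 0.28 ± 0.03, Gfap by 0.23 ± 0.06 and S1pr3 by 0.15 ± 0.03 (adjusted p = 1.2e-28, 6.1e-16, 0.00014 and 5.2e-07). Cp was lower, at -0.16 ± 0.02 (adjusted p = 5.7e-09). Osmr (-0.05 ± 0.04), Cd44 (-0.03 ± 0.04) and Steap4 (0.04 ± 0.14) did not pass.

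The 3 rarely detected members are given by their counts. Timp1, an inhibitor of matrix-degrading enzymes, had 46 counts over 8 untreated zQ175 libraries of 6[4]10 against 8 over the WT libraries, a ratio of 5.48 per count sequenced with a 95% counting interval of 2.56 to 13.4. Under NTC in 6[4]10 the sums were 46 in zQ175 against 4 in WT (ratio 11.2, interval 4.09 to 42.9), and under HTT-10150 they were 35 against 10 (ratio 3.15, interval 1.53 to 7.14). No zQ175 library of 6[4]10 was without a Timp1 count, while 2, 5 and 2 WT libraries were (untreated, NTC and HTT-10150). In NTC, the lowest zQ175 library (0.147 CPM) stood above the highest WT library (0.0990 CPM). These intervals cover counting error only, not the spread between animals.

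Timp1 was less separated elsewhere. In 2+6[8]10 the sums were 27 against 11 in untreated animals (ratio 1.91, interval 0.919 to 4.28), 15 against 10 under NTC and 26 against 9 under HTT-10150 (ratio 2.24, interval 1.02 to 5.44, or 0.823 to 4.79 without the highest library), zQ175 first in each. In 2[4]6 they were 12 against 12, 10 against 9 and 6 against 12 in the same order of treatments. When the filter on low counts was not applied, Timp1 passed edgeR's quasi-likelihood test in the 3 comparisons of 6[4]10, at log2 fold changes of 2.25 ± 0.48, 3.13 ± 0.54 and 1.51 ± 0.48 for untreated, NTC and HTT-10150 animals (adjusted p = 0.00028, 9.4e-06 and 0.018), and in none of the other 6.

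Lcn2, the iron-related lipocalin, had 1 library that held a large share of the counts in each of the 3 genotype comparisons of 6[4]10. Its 54 counts in untreated zQ175 against 16 in WT included a library with 37 of them (1.60 CPM), and the 56 counts under NTC against 8 in WT included a library with 34 of them (1.84 CPM). Under HTT-10150 the sums were 27 in zQ175 against 26 in WT, of which 1 WT library held 22. Without these 3 libraries, a step chosen after seeing the data, the ratios were 1.18 in untreated animals (interval 0.56 to 2.49), 3.02 under NTC (1.3 to 7.85) and 5.35 under HTT-10150 (1.87 to 21.1), against 3.21, 6.82 and 0.936 with them. Without the filter Lcn2 passed in 1 of 9 comparisons, NTC in 6[4]10 (2.65 ± 0.96, adjusted p = 0.048), where 34 of the 56 counts are those of 1 library. Steap4, a metal reductase, had 82 counts in zQ175 against 41 in WT under NTC in 6[4]10 (ratio 1.95, interval 1.32 to 2.91), and the intervals of its other 8 ratios included 1. A single zQ175 library (female replicate 4) held 40 of the 82, and without it the ratio was 1.19 (interval 0.754 to 1.87).

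**Figure D3:**
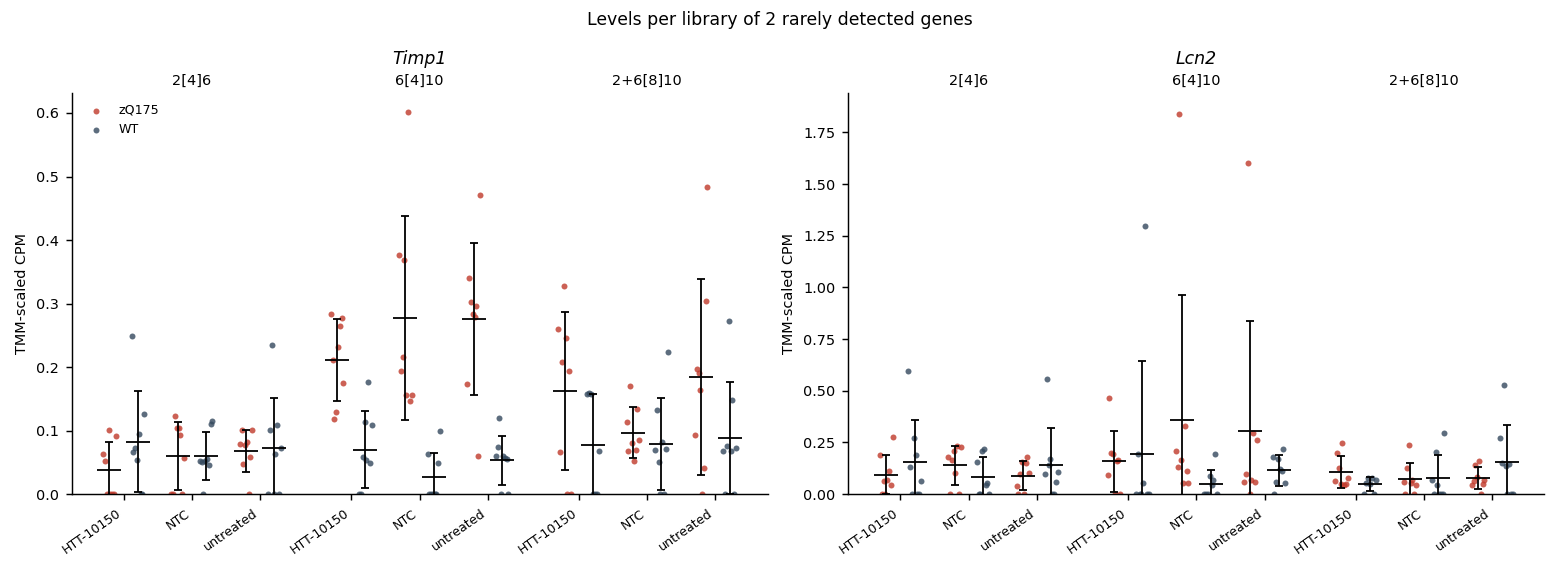
Timp1 and Lcn2 in TMM-scaled CPM per library, zQ175 in red left of WT in dark blue-grey, with the mean and SD of each group (bars end at 0). Timp1 is detected in every zQ175 library of 6[4]10, while single libraries at 1.84, 1.60 and 1.30 CPM set the highest means of Lcn2.

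The older untreated animals were next set against the younger ones within each genotype. Collection age and strategy cannot be told apart in this comparison. In zQ175, 6[4]10 over 2[4]6 passed for 3 of 8 members (7.95% of all genes): Serpina3n by 0.64 ± 0.16, Gfap by 0.54 ± 0.18 and Vim by 0.42 ± 0.09 on the log2 scale (adjusted p = 0.0062, 0.042 and 0.0012). Serpina3n medians were 10.2 CPM at 10 months and 6.64 CPM at 6 months, and those of Gfap 167 and 116 CPM. Without replicate 2 these values became 0.52, 0.27 and 0.34, and none passed (adjusted p = 0.13, 0.59 and 0.056). Gfap also missed the threshold without replicate 1 or 3 (0.50 and 0.60) and Vim without replicate 1 (0.34). In the other 10-month cohort, 2+6[8]10 over 2[4]6, 1 of 8 passed (3.04% of all genes), Serpina3n at 0.54 ± 0.17 (adjusted p = 0.049). It did not pass without any 1 of the 4 replicate numbers (0.46 to 0.63), while Gfap stood at 0.45 ± 0.18 and Vim at 0.21 ± 0.09.

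In WT none of 8 members passed by edgeR in 6[4]10 over 2[4]6 (12.1% of all genes) or in 2+6[8]10 over 2[4]6 (16.9%), and DESeq2 also called 0. At an unadjusted p under 0.05 by edgeR there was 1 member in each, Osmr, and there were 4283 and 4909 of 16295 genes. Osmr stood at 0.32 ± 0.12 and 0.27 ± 0.12, and the first became 0.41 and passed without replicate 2 (adjusted p = 0.047). WT Serpina3n stood at 0.04 ± 0.18 and 0.14 ± 0.18. The difference itself, the genotype effect at 10 months minus that at 6 months, was also tested. It called 0 of 8 members in 6[4]10 (0.835% of all genes) and 0 in 2+6[8]10 (0.0675%), by edgeR and by DESeq2. At an unadjusted p under 0.05 there were 2 and 1 members, and 2614 and 1803 of 16295 genes by edgeR. The largest values were those of Serpina3n in 6[4]10 (0.60 ± 0.22, adjusted p = 0.15) and of Vim in both strategies (0.35 ± 0.12, adjusted p = 0.12 and 0.24). In untreated animals, the larger genotype differences at 10 months and the smaller ones at 6 months are thus not shown to differ for these 8 members. The same contrast was not tested under NTC or HTT-10150, and the filter on low counts dropped Timp1 and Lcn2 from it.

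The siRNA comparisons ask whether lowering Htt moved these genes. By edgeR, 0 of 7 members passed for HTT-10150 against NTC in zQ175 in 2[4]6, 6[4]10 or 2+6[8]10, where 0%, 0% and 3.16% of all genes passed. In WT 0 passed as well (0.00636%, 0% and 0.0129% of all genes). DESeq2 called 0 members in each of these 6 comparisons. At an unadjusted p under 0.05 by edgeR there were 1, 3 and 0 members in zQ175 and 1, 1 and 0 in WT. Of all genes, 821 of 15716, 561 of 15757 and 2635 of 15506 were under it in zQ175. In WT 932, 517 and 812 of the same totals were. Whether the members' counts depart from these shares was not tested. In zQ175 of 2+6[8]10, where Htt itself fell, the members' log2 fold changes ran from -0.09 to 0.16, and their 95% intervals from -0.42 to 0.50. Serpina3n there had 8.40, 11.5 and 17.5 CPM under HTT-10150 against 6.996, 11.1 and 15.2 CPM under NTC, and the groups overlapped over most of their range.

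Averaged over the 3 strategies, HTT-10150 against NTC called 0 of 8 members in zQ175 (0.0368% of all genes) and 0 in WT (0.104%). DESeq2 called 0 members in each as well. At an unadjusted p under 0.05 there were 4 and 2 members, and 1064 and 1333 of 16295 genes by edgeR. In zQ175, Gfap stood at -0.04 ± 0.10, Serpina3n at 0.15 ± 0.09 and Vim at -0.12 ± 0.05. Cd44 had the lowest unadjusted p in both genotypes, with 0.21 ± 0.08 in zQ175 and 0.22 ± 0.08 in WT (adjusted p = 0.66 and 0.41). Osmr was at -0.14 ± 0.06 in zQ175 and at 0.17 ± 0.07 in WT, neither past the test. The effect in zQ175 minus that in WT called 0 members in each strategy (0%, 0% and 0.529% of all genes) by either tool. By edgeR 2, 1 and 0 members had an unadjusted p under 0.05. Of all genes, 398 of 15716, 673 of 15757 and 1893 of 15506 did. The lowest unadjusted p among the members was that of Osmr in 6[4]10 (-0.54 ± 0.19, adjusted p = 0.98).

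NTC against untreated called 0 of 7 members in zQ175 in each strategy (0%, 0% and 0% of all genes) and 0 in WT (0%, 0% and 0.181%). DESeq2 called 0 as well. At an unadjusted p under 0.05 there were 2 members by edgeR in WT of 2+6[8]10 and 0 in the other 5 comparisons. Of all genes, 1771 of 15506 were under it in that WT comparison, and 316 to 1167 in the other 5. Averaged over strategies, NTC against untreated called 0 of 8 in zQ175 (0.0123% of all genes) and 0 in WT (0.141%), and DESeq2 called 0. By edgeR, 1 and 3 members had an unadjusted p under 0.05, and so had 1445 and 880 of 16295 genes. The lowest p values were those of Cp (-0.16 ± 0.04, adjusted p = 0.13) and S1pr3 (-0.17 ± 0.05, adjusted p = 0.17), both in WT. In zQ175 the same contrast stood at 0.00 ± 0.04 for Cp and 0.01 ± 0.05 for S1pr3.

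**Figure D4:**
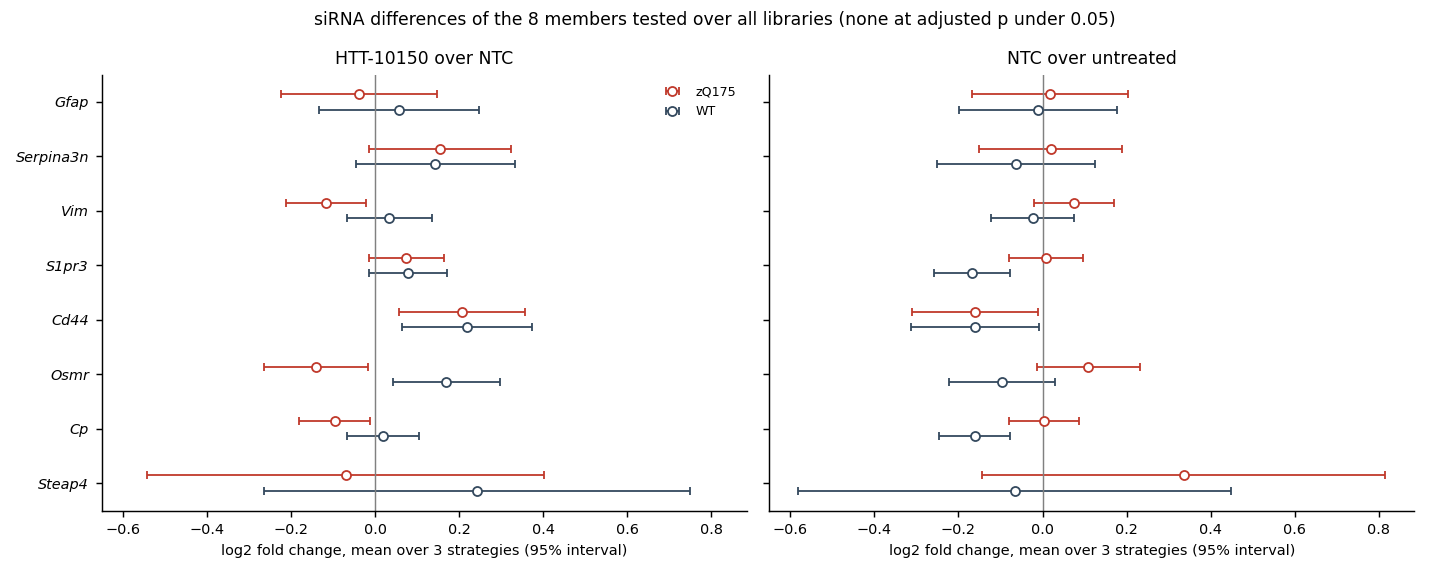
Log2 fold changes of the 8 members tested over all libraries, HTT-10150 over NTC at left and NTC over untreated at right, averaged over 3 strategies with 95% intervals; zQ175 in red above WT in dark blue-grey. No value passed at adjusted p under 0.05, and Cd44 under HTT-10150 lies near 0.2 in both genotypes.

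Females and males differed in 2 of 7 members in 2[4]6 (16.6% of all genes, 8.19% higher in females). Over the 6 groups, Vim was lower in females (-0.15 ± 0.04, adjusted p = 0.012) and Cp was higher (0.14 ± 0.04, adjusted p = 0.026). Vim missed the threshold without replicate 2 or 3 (-0.14 and -0.10) and Cp without each replicate in turn (0.12 to 0.15). None passed in 6[4]10 (2.21% of all genes) or 2+6[8]10 (2.10%), where DESeq2 called 0 too and Cp stood at 0.08 ± 0.04 and 0.12 ± 0.04. At an unadjusted p under 0.05 there were 0 and 1 members, and 2648 of 15757 and 2308 of 15506 genes by edgeR.

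The members were then read across animals after terms for the group and for sex within each strategy had been fitted to log2 CPM and removed. This leaves differences between mice of 1 group, including any sex difference that departs from that of its strategy. Over 143 libraries, Gfap varied together with Serpina3n (Pearson r = 0.69, Spearman rho = 0.68), Vim (r = 0.53, rho = 0.50) and Cd44 (r = 0.41, rho = 0.43). Each had a permutation p of 1e-05, the smallest that 100000 resamples can give, and an adjusted p of 3e-05 over 9 relations. Without the 2 libraries farthest from the Gfap median, r was 0.71, 0.50 and 0.44. Within 2[4]6, 6[4]10 and 2+6[8]10, r with Serpina3n was 0.49, 0.68 and 0.81, with Vim 0.49, 0.62 and 0.46, and with Cd44 0.16, 0.30 and 0.65. The relation with Cd44 did not pass within 2[4]6 or 6[4]10.

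Timp1 reached r = 0.21 (permutation p = 0.024, adjusted p = 0.054), and Lcn2 (0.13), Osmr (0.09), S1pr3 (0.04), Steap4 (0.02) and Cp (-0.02) did not pass either, with permutation p between 0.16 and 0.84; the counts of Timp1, Lcn2 and Steap4 are low. The same residuals were compared over 13190 genes, and the members were left out of the ranking. The genes most like Gfap were then Trf (r = 0.84), Mag (0.81), C4b (0.80), Cnp (0.80), Bcas1 (0.79) and Sept4 (0.79). Trf, Mag, Cnp and Bcas1 are known from oligodendrocytes, the cells that make myelin, and C4b encodes a complement component. Outside the members, the genes most like Serpina3n were Shisa4 (0.61), Bin1 (0.60), Cdk18 (0.59), Cd81 (0.58), Sulf2 (0.58) and Rasa3 (0.56), all below its r with Gfap (0.69). These r values describe likeness over 143 libraries that share dissection and depth.

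The 8 oligodendrocyte markers, among them Mbp, Mog, Mag and Mal, summed to 5953 to 13720 CPM per library, and Gfap followed their mean across animals (r = 0.79, rho = 0.73, adjusted p = 6e-05 over 60 relations between members and cell type lists). Within 2[4]6, 6[4]10 and 2+6[8]10, r was 0.73, 0.81 and 0.79, and it was 0.75 without the 2 farthest libraries. Serpina3n (r = 0.50), Vim (0.39) and Cd44 (0.32) followed the same markers less closely. Gfap also followed the astrocyte markers (r = 0.62) and 8 activated microglia markers (r = 0.69). For Serpina3n the values with these 2 lists were 0.43 and 0.46. Which cells the RNA of Serpina3n came from was not tested. Cp and Steap4 followed other cell types. Cp followed the meningeal fibroblast markers (r = 0.46), the choroid plexus markers (0.35) and the endothelial markers (0.31). Steap4 followed the choroid plexus (r = 0.52, rho = 0.35) and meningeal (r = 0.40, rho = 0.25) markers. Weaker relations also passed by permutation of r. Timp1 followed the choroid plexus markers (r = 0.24, adjusted p = 0.034). S1pr3 followed the meningeal (0.25, adjusted p = 0.021) and activated microglia (0.21, adjusted p = 0.032) markers.

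The oligodendrocyte markers themselves moved with genotype. Among all genes tested, 2710 of 15716, 2673 of 15757 and 2838 of 15506 were lower in untreated zQ175 in 2[4]6, 6[4]10 and 2+6[8]10. The 8 oligodendrocyte markers had 4, 4 and 5 lower there and 0 higher, with Mal at -0.33 ± 0.06, -0.42 ± 0.09 and -0.51 ± 0.09. Their sum ran from 8442 to 11660, 7476 to 11550 and 6932 to 12290 CPM in untreated zQ175, against 9736 to 11800, 10210 to 13720 and 10380 to 13540 CPM in untreated WT, and 0 of the 8 markers were at 0 in any group. Their mean was therefore added to the model as a covariate, a step chosen after seeing the data. Gfap then passed upwards in 8 of 9 genotype comparisons. Its log2 fold changes in untreated animals became 0.29 in 2[4]6, 0.66 in 6[4]10 and 0.64 in 2+6[8]10 (adjusted p = 0.013, 1.1e-05 and 8.2e-05). The lower Gfap of zQ175 under HTT-10150 in 2[4]6 became 0.12 and did not pass (adjusted p = 0.46). Serpina3n under HTT-10150 in 2[4]6 became 0.46 and passed (adjusted p = 0.015). Over the 9 pairs Gfap stood at 0.58, Serpina3n at 1.004 and Vim at 0.37. A covariate that differs between the genotypes also carries a part of the genotype effect, and the 2 cannot be told apart.

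**Figure D5:**
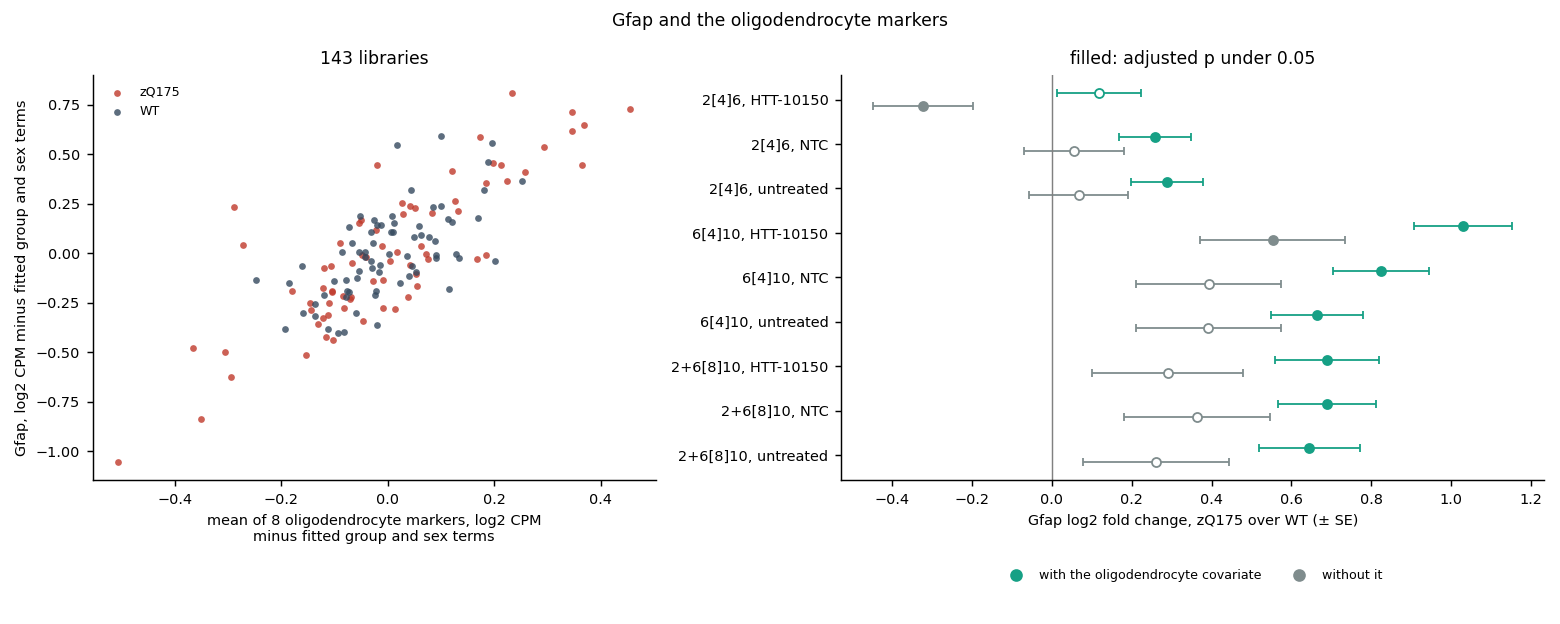
Left, log2 CPM of Gfap against the mean of 8 oligodendrocyte markers in 143 libraries, both minus fitted terms for group and sex, zQ175 in red and WT in dark blue-grey (r = 0.79). Right, log2 fold change of Gfap, zQ175 over WT, ± SE, in 9 comparisons with the oligodendrocyte covariate (green, filled in 8 of 9) and without it (grey, filled in 2 of 9).

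Choroid plexus RNA, from a tissue that lies within the ventricle beside the striatum, varied between libraries from 29.3 to 5512 CPM over 8 markers. It was above 3 times the median in 27 libraries, 0 to 3 in each group. Without them, a setting also chosen after seeing the data, Serpina3n still passed in 8 of 9 genotype comparisons and Vim in 6. Gfap then passed in 2, both upwards, untreated (0.52, adjusted p = 0.027) and HTT-10150 in 6[4]10, and Cp passed in 3 rather than 5. The filter on low counts dropped Timp1 in this setting as well. Under NTC in 6[4]10, 3 zQ175 libraries and 1 WT library were left out.

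Most astrocyte identity markers fell. Of 16, 11, 12 and 12 were lower in untreated zQ175 in 2[4]6, 6[4]10 and 2+6[8]10 (of all genes, 2710 of 15716, 2673 of 15757 and 2838 of 15506 were lower) and 1 rose in each, with medians of -0.20, -0.20 and -0.22 on the log2 scale. Among them the glutamate transporter Slc1a2 stood at -0.32 ± 0.06, -0.46 ± 0.05 and -0.44 ± 0.04 and the bicarbonate transporter Slc4a4 at -0.34 ± 0.04, -0.47 ± 0.06 and -0.47 ± 0.04. S100b, a calcium-binding protein, rose by 0.41 ± 0.07, 0.35 ± 0.07 and 0.26 ± 0.07.

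Genes named for the A1 state, which lipopolysaccharide induces in mouse astrocytes, numbered 11, of which 3, 4 and 3 were lower in untreated zQ175 and 0, 0 and 1 higher. Fbln5, a matrix protein, stood at -0.85 ± 0.10, -0.99 ± 0.10 and -0.76 ± 0.08 and Amigo2, an adhesion protein, at -0.40 ± 0.09, -0.53 ± 0.10 and -0.35 ± 0.08, while H2-D1, which presents antigen, rose by 0.25 ± 0.07 in 2+6[8]10. Genes named for the A2 state, induced by ischaemia, fell in 2, 1 and 2 of 9 tested and rose in 0, 1 and 3. Of all genes, 32.6%, 36.1% and 35.4% passed in either direction in 2[4]6, 6[4]10 and 2+6[8]10. Whether the A1 or A2 counts depart from these shares was not tested. S100a10 stood at -0.57 ± 0.10, -0.78 ± 0.09 and -0.997 ± 0.09, and Ptgs2, a prostaglandin synthase, rose by 0.41 ± 0.14 in 6[4]10 and 0.58 ± 0.17 in 2+6[8]10. Medians of the A1 list were -0.18, -0.06 and -0.02, and those of the A2 list -0.09, 0.01 and 0.13. Of the 3 further genes that both states share, Hspb1, a small heat shock protein, stood at -0.32 ± 0.13, 0.09 ± 0.23 and -0.33 ± 0.17, and neither it nor Cxcl10 or Aspg passed where tested.

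From the IL-6 family and the STAT3 pathway, 17 of 20 genes were tested. In untreated zQ175, 4, 1 and 2 rose and 3, 2 and 4 fell in 2[4]6, 6[4]10 and 2+6[8]10. The totals of 7, 3 and 6 of 17 compare with 32.6%, 36.1% and 35.4% of all genes. The cytokine genes Ctf1 (0.67 ± 0.16 in 2[4]6 and 0.52 ± 0.20 in 6[4]10) and Clcf1 (0.61 ± 0.16 in 2+6[8]10) rose. Stat3 rose by 0.11 ± 0.03 in 2[4]6 and 0.14 ± 0.04 in 2+6[8]10. Pim1, a kinase gene that STAT3 induces, fell by 0.55 ± 0.12 in 2[4]6 and 0.50 ± 0.20 in 2+6[8]10. The receptor gene Cntfr fell by 0.25 ± 0.07 in 2[4]6 and 0.15 ± 0.04 in 2+6[8]10, and Jak2, which signals below Osmr, stood at -0.17 ± 0.06 in 6[4]10 and -0.14 ± 0.06 in 2+6[8]10.

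Among ligands and partners of the members, 3, 5 and 4 rose and 7, 7 and 7 fell, of 21, 21 and 20 tested. For all genes, 15.3%, 19.2% and 17.1% rose in the same comparisons, and 2710 of 15716, 2673 of 15757 and 2838 of 15506 fell. Whether the counts of ligands and partners depart from these was not tested. Timp2, a relative of Timp1, rose by 0.30 ± 0.03, 0.36 ± 0.03 and 0.38 ± 0.03. Timp3 fell by 0.31 ± 0.05, 0.31 ± 0.07 and 0.18 ± 0.05, and Timp4 by 0.20 ± 0.07 in 2[4]6 and 0.42 ± 0.07 in 2+6[8]10. The sphingosine-1-phosphate receptor gene S1pr2 stood at -0.61 ± 0.12, -0.30 ± 0.10 and -0.47 ± 0.11, and Heph, an iron oxidase related to ceruloplasmin, at -0.32 ± 0.11, -0.29 ± 0.10 and -0.40 ± 0.10. Hmmr, a further hyaluronan receptor, rose by 0.77 ± 0.29 in 6[4]10, and the iron exporter gene Slc40a1 fell there by 0.33 ± 0.07. Of 10 partners of the intermediate filaments, Plec (-0.19 ± 0.05) and Ina (-0.15 ± 0.06) fell in 2[4]6 and Nefl rose in 6[4]10 (0.15 ± 0.06).

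Of the activated microglia markers, 0, 4 and 3 rose in untreated zQ175 of 2[4]6, 6[4]10 and 2+6[8]10 and 3, 1 and 2 fell, of 7, 8 and 8 tested. Among all genes tested, 15.3%, 19.2% and 17.1% rose there, and 2710 of 15716, 2673 of 15757 and 2838 of 15506 fell. Cst7 rose by 2.17 ± 0.39 in 6[4]10 and 1.96 ± 0.33 in 2+6[8]10, Itgax by 1.47 ± 0.26 and 1.63 ± 0.29, and Clec7a by 1.22 ± 0.22 and 1.55 ± 0.26. These had the lowest medians of the list over all libraries, at 0.32, 0.68 and 0.96 CPM. Fold changes of the markers that fell are not given here. The summed level of the list is mostly that of Apoe, which astrocytes also make (median 1751 CPM over all libraries), and had untreated medians of 1751, 1850 and 1730 CPM in zQ175 against 2080, 2111 and 1956 CPM in WT. Of 8 endothelial markers, 7, 7 and 5 fell, with untreated sums of 182 to 244 CPM in zQ175 against 218 to 296 CPM in WT. Whether the microglia or endothelial counts depart from the values for all genes given above was not tested. Neutrophils also make Lcn2, and their markers summed to a median of 0.24 and at most 1.86 CPM per library. Lcn2 itself had a median of 0.07 CPM, with libraries at 1.84, 1.60 and 1.30 CPM in 6[4]10. The part of neutrophils, microglia and vessels in the members' values was not tested.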

How the data were processed

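Polyadenylated RNA of dissected striatum was sequenced from 143 mice, 1 library each. The authors deposited expected counts per gene, made with RSEM on GRCm38 per the submitters' processing notes; no aligner, RSEM version or annotation is named in those notes (not given in the sources used here). The second table that the authors deposited is named FPKM, but its values sum to 1000000 in every library, and it is treated as TPM. Of 41135 entries, 7 name no gene and hold 5.91e-06% of counts; they were left out. No 2 libraries were identical, and 78.4% of nonzero counts were whole within 1e-09. Total counts ran from 12.55 to 29.19 per library, in units of 1000000.

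Counts were rounded and tested with edgeR 4.0.16 (R 4.3.3): TMM scaling, filterByExpr over groups, and the robust quasi-likelihood test. Each strategy had 1 fit over its 6 groups with a sex term, and comparisons across strategies had 1 fit over 143 libraries with sex within strategy. Adjusted p values are Benjamini-Hochberg over all genes tested, with a threshold of 0.05. Errors are standard errors, the 95% interval is ± 1.96 of them, and log2 CPM carries a prior count of 2. Correlations were made in Python 3.11.15 with scipy 1.17.1, on residuals from terms for group and for sex within strategy, permuted within groups. The tests were checked on simulated data with known changes.

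The members and the gene lists were chosen with earlier results of these data known. All 10 members are named; from the other lists the rule names up to 4 passing genes per comparison by size of change. Stat3 and some values of Timp3, Timp4 and the microglia genes were added to it. All 189 list symbols were found; values of 1 of them are not reported here. Alternatives were DESeq2 1.42.0, RLE scaling, no low-count filter, no sex term, only the compared groups, the replicate number as a block, each replicate number left out in all groups, other control animals, and settings added after seeing the data: an oligodendrocyte covariate, no choroid-rich libraries, summed counts of the rare members without their highest library, and a block by the number in the library names. Groups come from the sample titles, whose replicate numbers are within sex. Same-numbered libraries of different groups had a mean r of 0.03, 0.00 and 0.00 by strategy, against -0.04, -0.03 and -0.03 for differently numbered ones. In 2[4]6, 31 of 120 same-numbered pairs exceeded an r of 0.1. The numbers were not taken as pairs, and the main fits took all libraries as independent. The block by the number in the library names was not used for genotype comparisons.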

Additional observations from a re-analysis of the deposited data

Results flagged for a closer look

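In 14 of 180 combinations of a member and a group (7.78%, where chance gives about 1 in 20), 1 library stood apart from the other 7 or 6 by Dixon's criterion. No explanation of these values was tested. All values are TMM-scaled CPM.

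In untreated WT of 6[4]10, female replicate 1 was high for 2 members. Gfap was at 209.2 in it and at 111.1 to 147.4 in the others, and Osmr was at 7.603 in it and at 3.419 to 4.926 in the others. Serpina3n was at 8.79 in male replicate 4 of untreated zQ175 in 2[4]6 (others 6.162 to 7.284). It was at 10.75 in male replicate 1 of untreated WT in 2+6[8]10, where the others ran from 4.542 to 6.195. Vim was at 41.49 in female replicate 4 of zQ175 under NTC in 2[4]6 (others 31.41 to 35.74), and Osmr at 4.878 in male replicate 3 of untreated WT in 2[4]6 (others 3.244 to 3.93).

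The rare members were set apart by few counts. Lcn2 was at 1.838, or 34 counts, in male replicate 3 of zQ175 under NTC in 6[4]10 (others 0.05205 to 0.3281). It was at 1.296, or 22 counts, in male replicate 4 of WT under HTT-10150 in 6[4]10 (others 0 to 0.1923). Steap4 was at 0.9386, or 23 counts, in male replicate 2 of untreated zQ175 in 2+6[8]10 (others 0.1318 to 0.3704). Timp1 was at 0 in female replicate 4 of untreated zQ175 in 2[4]6 (others 0.04782 to 0.101).

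Low libraries were seen for Cp and S1pr3. Cp was at 8.822 in male replicate 2 of WT under NTC in 2[4]6 (others 11.87 to 13.82) and at 7.992 in male replicate 1 of zQ175 under NTC in 6[4]10 (others 10.27 to 12.43). S1pr3 was at 5.662 in female replicate 4 of untreated zQ175 in 2+6[8]10 (others 6.39 to 6.899) and at 4.56 in male replicate 2 of WT under HTT-10150 in 2+6[8]10 (others 5.551 to 6.185).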

How the results depend on the processing

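Of 277 member fold changes tested, 37 passed. DESeq2 and RLE scaling called the same 37, the fit without sex 35 of 35 that it covers, the fit of only the compared groups 26 of 26 and the fit without a filter 32 of 37. The 26, 25, 29 and 28 that passed without replicate 1, 2, 3 and 4 come from fits with fewer libraries in every group. The replicate block kept 30 of 31 and gave 2 members in place of 1 for NTC in 2[4]6, where Vim passed (0.16, adjusted p = 0.035), and Osmr under HTT-10150 in 6[4]10 no longer passed (-0.33, adjusted p = 0.051). The block by library number had no passing value to recompute, and the same holds for untreated animals in place of NTC.

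Without the filter, passing members numbered 1 rather than 2 for HTT-10150 genotype in 2[4]6 and for sex in 2[4]6, 5 rather than 3 for NTC genotype in 6[4]10, and 0 rather than 1 for zQ175 age in 2+6[8]10. Without the choroid-rich libraries the same counts, NTC aside, were 0, 1 and 0. The oligodendrocyte covariate kept 35 of 37 and added 11, with 4 passing rather than 1 for NTC genotype in 2[4]6 and 2 rather than 1 for zQ175 age in 2+6[8]10. Of the other 8 genotype counts, 6 were higher by 1 and 1 was lower by 1. The Gfap value under HTT-10150 in 2[4]6 turned from -0.32 to 0.12 with that covariate. With NTC animals in place of untreated ones, 1 rather than 2 members passed in 2[4]6, and Cp in 2+6[8]10 stood at 0.055 rather than -0.20. The cause of these changes was not tested.

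Leaving out 1 replicate number gave 1 to 2, 0 to 1 and 0 to 2 passing members in 2[4]6 for genotype in untreated, NTC and HTT-10150 animals. It gave 2 to 3, 2 to 4 and 2 to 5 in 6[4]10 and 2 to 3, 3 to 3 and 2 to 3 in 2+6[8]10. Sex in 2[4]6 gave 0 to 1, age in zQ175 0 to 3 (6[4]10) and 0 to 0 (2+6[8]10), and age in WT 0 to 1 (6[4]10). The siRNA comparisons stayed at 0.

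Within strategies, r with Gfap was 0.313 for Lcn2 in 2+6[8]10 (0.129 over all), 0.159 and 0.301 for Cd44 in 2[4]6 and 6[4]10 (0.41 over all), and -0.0136 and 0.183 for Timp1 in the same 2 (0.21 over all). Depth limits Timp1, Steap4 and Lcn2, with medians of 2, 5 and 1 counts per library.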

Other observations

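Other cell types of the striatum also differed in untreated animals. Of 10 medium spiny neuron markers, 9 fell in zQ175 in each strategy, with medians of -0.80, -0.73 and -0.80 on the log2 scale in 2[4]6, 6[4]10 and 2+6[8]10. Among all genes tested, 2710 of 15716, 2673 of 15757 and 2838 of 15506 fell in the same comparisons. Penk, the enkephalin precursor of the indirect pathway, stood at -1.29 ± 0.07, -1.20 ± 0.08 and -1.25 ± 0.05. The neuropeptide gene Tac1 was the exception over all 9 genotype pairs, at 0.05 ± 0.02 (adjusted p = 0.065). Mural markers fell in 7, 4 and 4 of 8 cases, while the ependymal, choroid plexus and meningeal markers had 0 or 1 passing in each strategy. Whether these marker counts depart from those of all genes was not tested.

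Of 8 markers of progenitors and neuroblasts of the ventricular wall, 2, 3 and 2 rose in untreated zQ175 and 0 fell, where 15.3%, 19.2% and 17.1% of all genes rose. Sox11, a transcription factor of young neurons, stood at 0.74 ± 0.08, 0.57 ± 0.09 and 0.60 ± 0.09, and Dcx, a microtubule protein of migrating neuroblasts, at 0.53 ± 0.11, 0.29 ± 0.09 and 0.40 ± 0.09. Their part in the values of Vim, which progenitors also make, was not tested.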
